A study of Mus musculus with 2 samples.

Results

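The 10 genes described here encode structural proteins of the basement membrane, the thin matrix sheet that ensheathes capillaries, nerves and every muscle fibre. They are Col4a1 and Col4a2 (collagen IV chains), Lama2, Lama4, Lamb1 and Lamc1 (laminin chains), Nid1 and Nid2 (nidogens), Hspg2 (perlecan) and Ntn4 (netrin-4). All 10 were found by symbol among the 32574 genes of 2 deposited single-cell RNA libraries, each symbol once. One library came from wild-type (WT) control littermates and the other from Apoa1bp-/- mice, whose genotype label is AIBP-KO; the deleted gene encodes the apolipoprotein A-I binding protein and is listed as Naxe. Both libraries were made from all cells of the ischaemic adductor muscle of the thigh, 7 days after femoral artery ligation, and no library of unoperated muscle was analysed here. Surgery was done on 4 mice per genotype. The labels give neither the ages of the mice nor whether their cells were pooled.

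A basement membrane is built from laminin trimers of 1 alpha, 1 beta and 1 gamma chain, which polymerise on the cell surface, and from a collagen IV network of Col4a1 and Col4a2 chains. Nidogens and perlecan bind both networks. Lama2 gives the laminin of the muscle fibre sheath, and its loss causes a congenital muscular dystrophy, whereas Lama4 gives the laminin of capillary walls. Netrin-4 binds laminin gamma chains and blocks laminin polymerisation. After ligation of the femoral artery the adductor muscle regenerates fibres and remodels vessels, and both need new basement membrane.

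Promoters of 4 of the genes are shown. Col4a1 and Col4a2 followed each other across the cell types, and Nid1 and Ntn4 are the members whose difference between the libraries is described most fully. RefSeq promoter windows of 300 bases on build GRCm38.p6, each with 250 bases before and 50 after the annotated start, were at hand for 7 of the 10 genes. Capitals mark GC boxes (GGGCGG or its complement CCGCCC) and CCAAT boxes (CCAAT or its complement ATTGG), and each window is written 5′ to 3′ on the strand of its gene. The Col4a1 window is chr8:11312777-11313076 on the minus strand and the Col4a2 window is chr8:11312555-11312854 on the plus strand. Nid1 lies at chr13:13437352-13437651 and Ntn4 at chr10:93640799-93641098, both on the plus strand.
Col4a1: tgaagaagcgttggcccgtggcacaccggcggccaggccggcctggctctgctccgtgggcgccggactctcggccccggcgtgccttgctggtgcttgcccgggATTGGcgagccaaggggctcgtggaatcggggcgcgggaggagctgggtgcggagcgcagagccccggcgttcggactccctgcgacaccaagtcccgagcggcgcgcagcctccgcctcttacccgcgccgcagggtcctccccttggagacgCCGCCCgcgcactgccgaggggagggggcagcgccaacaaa
Col4a2: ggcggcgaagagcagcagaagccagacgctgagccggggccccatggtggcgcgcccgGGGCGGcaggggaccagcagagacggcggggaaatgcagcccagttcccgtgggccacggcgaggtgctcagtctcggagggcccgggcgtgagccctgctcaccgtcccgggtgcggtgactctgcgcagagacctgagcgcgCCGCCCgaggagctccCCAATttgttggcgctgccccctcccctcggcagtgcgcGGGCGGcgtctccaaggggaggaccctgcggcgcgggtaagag
Nid1: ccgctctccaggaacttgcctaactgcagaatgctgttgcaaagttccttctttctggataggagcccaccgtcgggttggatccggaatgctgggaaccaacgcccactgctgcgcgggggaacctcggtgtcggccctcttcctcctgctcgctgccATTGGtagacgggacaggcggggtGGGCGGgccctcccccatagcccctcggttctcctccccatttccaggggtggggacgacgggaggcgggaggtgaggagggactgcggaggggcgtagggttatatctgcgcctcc
Ntn4: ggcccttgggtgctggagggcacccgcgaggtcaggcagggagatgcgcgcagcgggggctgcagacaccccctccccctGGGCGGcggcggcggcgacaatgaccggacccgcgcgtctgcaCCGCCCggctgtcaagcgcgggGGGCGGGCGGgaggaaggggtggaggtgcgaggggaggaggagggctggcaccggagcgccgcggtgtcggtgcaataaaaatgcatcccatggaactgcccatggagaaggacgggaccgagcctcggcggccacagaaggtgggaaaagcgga

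Col4a1 and Col4a2 lie head to head, with annotated starts 21 bases apart (11312826 and 11312805) on opposite strands. Their windows share 78 bases. In the GENCODE annotation of the same assembly their first exons overlap, and exons of Lama2, Nid1 and Nid2 overlap those of other genes on the opposite strand. No source used here says whether reads were counted by strand, so reads in such overlaps cannot be told apart. The head-to-head arrangement is known for the collagen IV gene pairs, which are transcribed in opposite directions from a shared promoter. Of 27025 genes with a window, 3212 (11.9%) had a window that overlaps one of a gene on the other strand. GC content was 74.0% for Col4a1, 73.7% for Col4a2, 72.0% for Ntn4 and 64.7% for Nid1, against a median of 52.7% over all windows. The Ntn4 window held 4 GC boxes, 2 of which overlap each other. Col4a2 held 3 GC boxes and 1 CCAAT box, and Col4a1 and Nid1 each held 1 of either kind. On either strand a GC box was found in 35.7% of all 32851 windows and a CCAAT box in 37.4%. A TATA box (TATAAA) was found in 13.6% of windows and in none of the 7. These letters describe the windows only.

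The WT library held 14035 barcodes with 80954991 unique molecular identifiers (UMIs, each counting 1 captured RNA molecule), and the Apoa1bp-/- library 9392 barcodes with 80444279. After removal of barcodes with under 200 genes or over 10% mitochondrial UMIs, 13837 and 9164 cells remained, with medians of 4461 and 6825 UMIs. The libraries shared 43 barcode sequences. The targeted gene was counted 4061 times in WT and 0 times in Apoa1bp-/-. A cell was placed in the gate of a cell type when it held UMIs of at least 3 of that type's 10 marker genes and of at least 2 more than of any other type's. This gated 86.6% of WT and 87.1% of Apoa1bp-/- cells, and all 10 markers of each gate were detected within it in both libraries. With 1 library per genotype there is no replicate, so no test between genotypes was possible and no p-value is given. Each interval is an exact 95% interval for the counting error alone. A level is given as CPM, the UMIs of a gene per 1000000 UMIs of the gate. Since UMIs are not scaled to transcript length, levels are compared between cells and not between genes. Shares within a gene pair are likewise compared between gates and are not read as relative amounts. A sum of the 10 is weighted to the genes with most UMIs, which over all WT cells were Nid1, Col4a1, Col4a2 and Hspg2.

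Among the gates taken whole, the basement membrane transcripts summed over the 10 genes were highest in the 2 vascular gates. In endothelial cells, which line the vessels, they made up 5764 CPM in WT (459 cells) and 4996 CPM in Apoa1bp-/- (413 cells). In mural cells, the pericytes and smooth muscle cells around them, the sum was 5144 CPM (194 cells) and 4571 CPM (222 cells). Fibroblasts held 4200.3 CPM in WT (4326 cells) and 2725.5 CPM in Apoa1bp-/- (1551 cells), and Schwann cells, the glia of nerves, 2801.5 CPM (57 cells) and 2793.8 CPM (131 cells). Myogenic cells, the muscle stem cells and their progeny, held 1092 CPM (1067 cells) and 950.3 CPM (1254 cells). Macrophages held 120.1 and 93.5 CPM, and T or NK cells, used here as the reference for free RNA, 145.3 and 58.0 CPM. Muscle fibres gave 175.3 and 34.4 CPM on only 81 and 12 UMIs, neutrophils 96.2 and 209.8 CPM on 11 and 112 UMIs, and dendritic cells 37.4 and 6.17 CPM on 19 and 4 UMIs. These gates thus stood well below the 5 others. The order of endothelial cells and fibroblasts depended on the weighting: endothelial over fibroblast was 1.37 in WT and 1.83 in Apoa1bp-/- as summed counts, but 0.921 and 1.33 with every cell weighted equally.

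**Figure D1:**
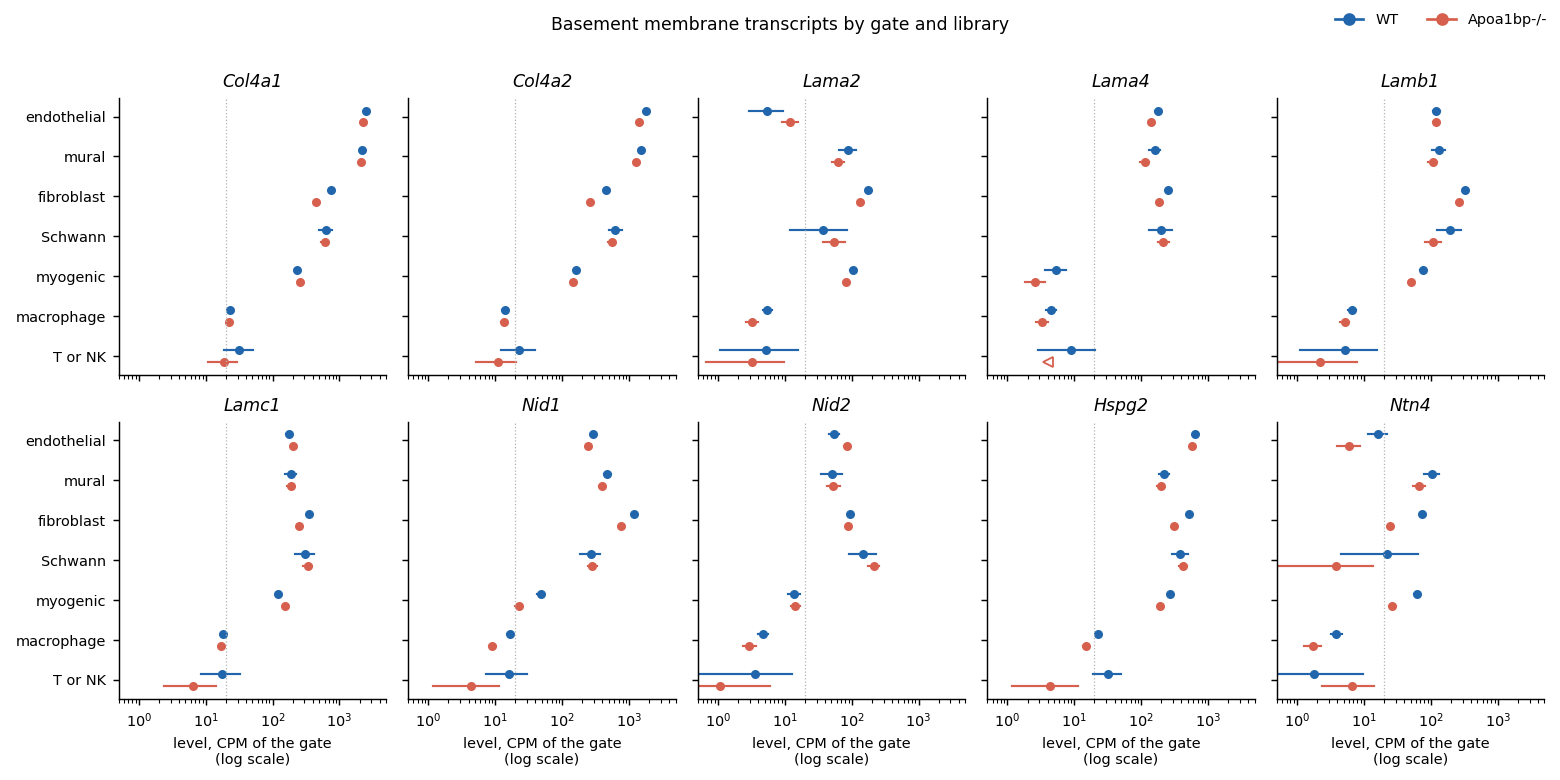
Level of each of the 10 transcripts in CPM of the gate (log axis) for 7 gates in the WT (blue) and Apoa1bp-/- (red) libraries, with bars for the exact 95% Poisson interval. The open triangle marks the upper limit at 0 UMIs, and the dotted line 20 CPM. Col4a1 and Col4a2 peak in the endothelial and mural gates, Lama2 is near the leukocyte level in WT endothelial cells, and Lama4 is near it in myogenic cells.

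Both collagen IV chains were highest in the vascular gates. Col4a1 stood at 2506 CPM in WT and 2212 CPM in Apoa1bp-/- endothelial cells and at 2210.1 and 2101 CPM in mural cells. Fibroblasts had 743.9 and 444.2 CPM of Col4a1 and myogenic cells 230.3 and 258.1 CPM. In WT the endothelial and mural intervals did not overlap, whereas in Apoa1bp-/- they did. Col4a2 followed the same order, with 1770.4 and 1393 CPM in endothelial cells, 1521 and 1290 CPM in mural cells, 460.2 and 265.2 CPM in fibroblasts and 162.6 and 144.5 CPM in myogenic cells. After every cell was thinned to 1000 UMIs, 80.2% of WT and 84.1% of Apoa1bp-/- endothelial cells had a Col4a1 UMI, against 2.39% and 0.392% of T or NK cells. The unthinned endothelial shares were 87.6% and 95.2%, at median depths of 2985 and 7575 UMIs per cell, against 1917 and 2837 in T or NK cells.

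In fibroblasts and endothelial cells, Col4a2 was detected more often in cells that had a Col4a1 UMI than in those that had none. Among thinned WT fibroblasts, 55.7% of those with a Col4a1 UMI had a Col4a2 UMI, against 17.0% of those without one. In Apoa1bp-/- fibroblasts the shares were 49.3% and 14.5%. Endothelial cells gave 69.6% against 39.0% in WT and 72.6% against 50% in Apoa1bp-/-. In Apoa1bp-/- Schwann cells the shares were 38% and 34.2%, with overlapping intervals, and the WT Schwann intervals overlapped too. Col4a1 made up 58.6% to 61.8% of the UMIs of both chains in WT endothelial, mural, fibroblast and myogenic cells and 61.4% to 64.1% in the same gates of Apoa1bp-/-. Schwann cells had a lower share, 49.7% of 169 UMIs and 51.9% of 605 UMIs. Across the 20 points given by 10 gates and 2 libraries, Col4a2 was also the gene nearest to Col4a1 of 11051 genes searched (Pearson r of 0.994 on log2 CPM). Igfbp7 (0.971) and Cavin3 (0.963) came next. These points share libraries and depth, and the r is a description.

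The 2 laminin alpha chains divided the cell types. Lama2, the alpha chain of muscle laminin, was highest in fibroblasts, at 175.5 CPM in WT and 132.8 CPM in Apoa1bp-/-. Myogenic cells had 103.5 and 82.0 CPM of Lama2, and endothelial cells 5.46 and 12.1 CPM, on 13 and 54 UMIs. The WT endothelial value is no higher than the 5.49 CPM of macrophages, whereas the Apoa1bp-/- value lies above their 3.28 CPM. Lama4, the alpha chain of vessel laminin, stood at 176.9 and 140.7 CPM in endothelial cells, 159.1 and 113.1 CPM in mural cells and 251 and 186.3 CPM in fibroblasts. In myogenic cells Lama4 was nearly missing, at 5.28 and 2.63 CPM. That is about the level of macrophages (4.48 and 3.32 CPM), so no fold is given. Of the UMIs of both alpha chains, Lama2 made up 2.995% in WT and 7.895% in Apoa1bp-/- endothelial cells, 41.2% and 41.6% in fibroblasts and 95.2% and 96.9% in myogenic cells. That order of the gates was the same in both libraries.

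The genes nearest to each alpha chain also differed. Lama2 was most like Antxr1 (0.966), Bicc1 (0.952) and Islr (0.945) over the 20 points. Lama4 was most like Akap12 (0.970), Colgalt2 (0.957) and another of the 10, Nid1 (0.953). The r between Lama2 and Lama4 themselves was 0.622.

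Lamb1 and Lamc1, the beta and gamma chains that pair with either alpha chain, were broader. Lamb1 was highest in fibroblasts, with 325.1 CPM in WT and 263.9 CPM in Apoa1bp-/-, and stood at 121 and 118.1 CPM in endothelial cells. Its myogenic level was 77.0 and 50.6 CPM. Lamc1 was at 346.4 and 251 CPM in fibroblasts, 174.4 and 204.6 CPM in endothelial cells, 187.2 and 188.1 CPM in mural cells and 120.8 and 155.3 CPM in myogenic cells. Among the 5 gates from endothelial to myogenic, Lamb1 and Lamc1 thus each spanned less than Lama2 or Lama4 did. In Schwann cells Lamc1 was at 303.1 and 338 CPM, and its WT interval overlapped that of fibroblasts.

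Nid1, which joins laminin to collagen IV, was highest in fibroblasts. It stood at 1207 CPM in WT and 757.9 CPM in Apoa1bp-/- fibroblasts, 472.2 and 391.5 CPM in mural cells and 292.1 and 240.5 CPM in endothelial cells. Myogenic cells had 47.8 and 22.3 CPM, so fibroblasts exceeded them 25.2-fold and 33.9-fold. Nid2, the second nidogen, was highest in Schwann cells, at 147.8 CPM on 20 UMIs in WT and 213.9 CPM on 112 UMIs in Apoa1bp-/-. Fibroblasts had 93.0 and 88.7 CPM of Nid2, and the WT intervals of the 2 gates overlapped. Nid1 made up 92.9% of nidogen UMIs in WT fibroblasts and 64.3% in WT Schwann cells, with 89.5% and 57.1% in Apoa1bp-/-.

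Hspg2, the heparan sulphate proteoglycan perlecan, was highest in endothelial cells, at 645.9 CPM in WT and 584.7 CPM in Apoa1bp-/-. Fibroblasts followed with 523.1 and 310.6 CPM, and Schwann cells had 384.4 and 420.1 CPM. Ntn4, the inhibitor of laminin assembly, was the only one of the 10 with its highest level in mural cells, in both libraries, at 104.4 and 67.3 CPM. WT fibroblasts had 74.7 CPM and WT myogenic cells 61.8 CPM, against 24.8 and 26.8 CPM in Apoa1bp-/-. Endothelial cells had 16.4 and 6.03 CPM of Ntn4, on 39 and 27 UMIs, so mural cells exceeded them 6.37-fold in WT. The Apoa1bp-/- endothelial value was no higher than the 6.57 CPM of T or NK cells. The genes nearest to Ntn4 over the 20 points were Mmp11 (0.915), Fam20a (0.905) and Errfi1 (0.896), none of them among the 10.

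A gene was counted as higher or lower when its ratio passed 1.5-fold and its level reached 20 CPM in at least 1 of the 2 groups. A gene far enough under 20 CPM in its lower group can pass the level only through its higher group. Its ratio then had to pass 1.5-fold, so the counts describe these libraries. In WT, endothelial cells were higher than fibroblasts for 2 of the 10, Col4a1 and Col4a2 (25.5% of all genes tested were higher), and lower for 6 (20.8% of all). In Apoa1bp-/-, 3 were higher, with Hspg2 added (24.3%), and 4 lower (21.7%). Mural cells were higher than endothelial cells for Lama2, Nid1 and Ntn4 in both libraries (25.3% of all genes in WT and 22.9% in Apoa1bp-/-). They were lower for Hspg2 alone in WT (19.3%) and for Nid2 and Hspg2 in Apoa1bp-/- (17.5%). Myogenic cells were lower than fibroblasts for 9 of the 10 in each library, all but Ntn4, against 26% of all genes in WT and 26.4% in Apoa1bp-/-. Some of these calls had to be made: those of Lama2 against endothelial cells (5.46 and 12.1 CPM) and of Lama4 in myogenic cells (5.28 and 2.63 CPM). So had those of Ntn4 against Apoa1bp-/- endothelial cells (6.03 CPM). Ntn4 in WT endothelial cells (16.4 CPM) and Nid2 in myogenic cells (13.8 and 14.5 CPM) also reached 20 CPM only through the other gate.

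Between the libraries, fibroblasts had the largest gap in the summed level among the 5 gates with most of it (endothelial, mural, fibroblast, Schwann and myogenic). Their sum was 0.649 times the WT value in Apoa1bp-/- (interval 0.642 to 0.656), whereas the ratio was 0.867 in endothelial, 0.889 in mural, 0.870 in myogenic and 0.997 in Schwann cells. With every cell weighted equally the endothelial and mural ratios were 1.04 and 1.03, so the direction in the 2 vascular gates depended on the weighting. In fibroblasts 10 of 10 reached 20 CPM. Of these, 5 were lower in Apoa1bp-/- and 0 higher, against 13% and 6.84% of the 6389 genes tested. The median log2 ratio of the 10 was -0.57, and that of all genes tested -0.09.

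The 5 lower members in fibroblasts came from 4 protein families. Col4a1 had a ratio of 0.597, Col4a2 of 0.576, Nid1 of 0.628, Hspg2 of 0.594 and Ntn4 of 0.333, the last on 2128 WT and 458 Apoa1bp-/- UMIs. With every cell weighted equally, Col4a1 (0.683) and Nid1 (0.704) were inside 1.5-fold, as was Col4a2 in thinned cells (0.669) and Nid1 under the median of ratios (0.668). The laminins stood closer to 1, at 0.756 for Lama2, 0.742 for Lama4, 0.812 for Lamb1 and 0.725 for Lamc1. Nid2 had the ratio nearest 1, at 0.954, and lay just above 1 when the libraries were scaled by the median of ratios (1.02) or TMM (1.01). The share of thinned fibroblasts with a Nid1 UMI was 68.9% in WT and 53.9% in Apoa1bp-/-, and with an Ntn4 UMI 8.35% and 2.76%, against 0.957% and 0% for Nid1 and 0% and 0.392% for Ntn4 in T or NK cells. A count of 0 among the 209 WT or 255 Apoa1bp-/- T or NK cells allows a share of up to 1.44% or 1.18% when the limit is set at 3 counts. Summed macrophage markers in the fibroblast gate were 571.2 CPM in WT and 285.4 CPM in Apoa1bp-/-, with 0 of the 10 higher in Apoa1bp-/-, and endothelial markers 30.4 and 20.8 CPM. Their part in the result was not tested.

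**Figure D2:**
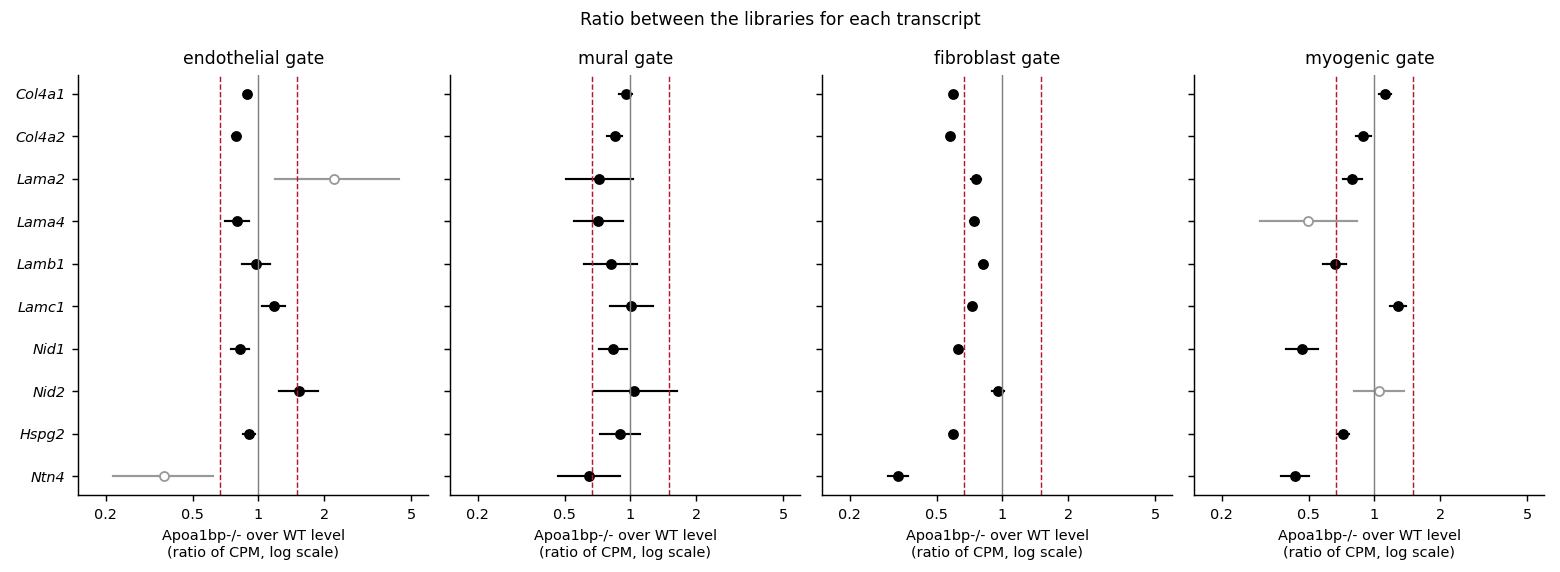
Ratio of the Apoa1bp-/- to the WT level of each transcript in 4 gates (log axis), with exact 95% intervals for counting error. Grey open points lie under 20 CPM in both libraries, and red dashed lines mark 1.5-fold either way. In fibroblasts 5 transcripts lie past the lower line, and Ntn4 lies lowest in the fibroblast gate at 0.333.

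The fibroblast gate divided differently among its sub-gates in the 2 libraries. The 3 sub-gates compared were set by 8 markers each, none of them among the 10: Pi16 progenitor fibroblasts, interstitial fibroblasts led by Cxcl14 and Ccl11, and activated fibroblasts led by Postn, Tnc and Cthrc1. In WT, 36.5% of fibroblasts were Pi16 progenitors, 28.8% interstitial and 26.6% activated. In Apoa1bp-/- the shares were 17.6%, 20.3% and 50.4%. Sub-gate markers were counted at full depth, and the fibroblast gate had medians of 5186.5 UMIs per cell in WT and 9318 in Apoa1bp-/-. Activated cells had medians of 9463 and 13675, and interstitial cells 4022.5 and 5976.5. The part of depth in these shares was not tested. The basement membrane sum was 4317 and 4229 CPM in Pi16 progenitors, 8401 and 7208 CPM in interstitial cells and 2068 and 1615 CPM in activated cells. The sub-gate that held most of the Apoa1bp-/- fibroblasts was thus the one with the lowest sum in both libraries. The interstitial sums lay above those of the whole endothelial gate (5764 and 4996 CPM). A small endothelial sub-gate set by tip cell markers (13 WT and 9 Apoa1bp-/- cells) had 8875 and 7234 CPM.

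Interstitial fibroblasts were the collagen IV cells of this gate. Col4a1 stood there at 2247 CPM in WT and 1783 CPM in Apoa1bp-/-, against 411.1 and 332 CPM in Pi16 progenitors and 230.5 and 209.8 CPM in activated cells. Interstitial cells exceeded Pi16 progenitors 5.47-fold in WT and 5.37-fold in Apoa1bp-/-. Hspg2 had the same order, with 1174 and 842.3 CPM in interstitial cells and 387.9 and 300.6 CPM in Pi16 progenitors. Nid1 did not: Pi16 progenitors had 1940 and 1979 CPM, interstitial cells 1480.3 and 1448 CPM, and activated cells 567.8 and 413.1 CPM. Ntn4 was also highest in Pi16 progenitors, at 142.6 and 98.4 CPM, above 69.8 and 33.0 CPM in interstitial and 30.6 and 11 CPM in activated cells.

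Interstitial cells were higher than Pi16 progenitors for 6 of the 10 (Col4a1, Col4a2, Lama2, Lamb1, Nid2 and Hspg2) and lower for 1, Ntn4, in each library. Of all genes, 10.8% were higher and 7.16% lower in WT and 13.9% and 8.92% in Apoa1bp-/-. They were higher than activated cells for 10 of the 10 in each library, against 22.1% of all genes in WT and 23.7% in Apoa1bp-/-. In Apoa1bp-/-, Ntn4 reached 20 CPM only in interstitial cells (33.0 against 11 CPM) and so had to be called. The smallest of these 10 gaps was that of Lama4, 1.63-fold in WT and 1.97-fold in Apoa1bp-/-, and in WT the largest was that of Col4a1, 9.75-fold.

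Within these 3 sub-gates most of the gap between the libraries was smaller. The ratio of the sum was 0.980 in Pi16 progenitors (interval 0.958 to 1.00), 0.858 in interstitial and 0.781 in activated cells. In a further, small sub-gate of tenocytes (tendon cells, 16 in WT and 46 in Apoa1bp-/-) the gap was larger, at 0.570 (0.499 to 0.654). Fibroblasts without a sub-gate had a ratio of 0.921. Nid1, at 0.628 in the whole gate, was at 1.02 in Pi16 progenitors and 0.978 in interstitial cells, with both intervals holding 1, and at 0.728 in activated cells. Lama2, at 0.756 in the whole gate, was at 1.195 in Pi16 progenitors, 1.10 in interstitial cells and 0.914 in activated cells. Col4a1 kept ratios of 0.808, 0.793 and 0.910, and Hspg2 of 0.775, 0.717 and 0.707. Ntn4 stayed lowest, at 0.690, 0.473 and 0.360, and all 3 of its intervals lay below 1.

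Counted by the 1.5-fold rule, Pi16 progenitors had 1 member higher in Apoa1bp-/- (Nid2, 51.4 and 82.0 CPM) and 0 lower, against 3.95% and 7.3% of all genes. Interstitial cells had 0 higher and Ntn4 lower, against 5.18% and 10.3%. Activated cells likewise had 0 higher and Ntn4 lower, against 5.62% and 6.91%. There Ntn4 reached 20 CPM only in WT (30.6 and 11 CPM) and so had to be called lower. With the Apoa1bp-/- sub-gates given the WT shares of UMIs, a calculation chosen after seeing the data, the ratio of the sum over the gate was 0.883 in place of 0.649. By the same calculation it was 0.818 for Col4a1, 0.764 for Col4a2, 0.941 for Nid1, 0.730 for Hspg2 and 0.573 for Ntn4. Only Ntn4 still passed 1.5-fold.

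**Figure D3:**
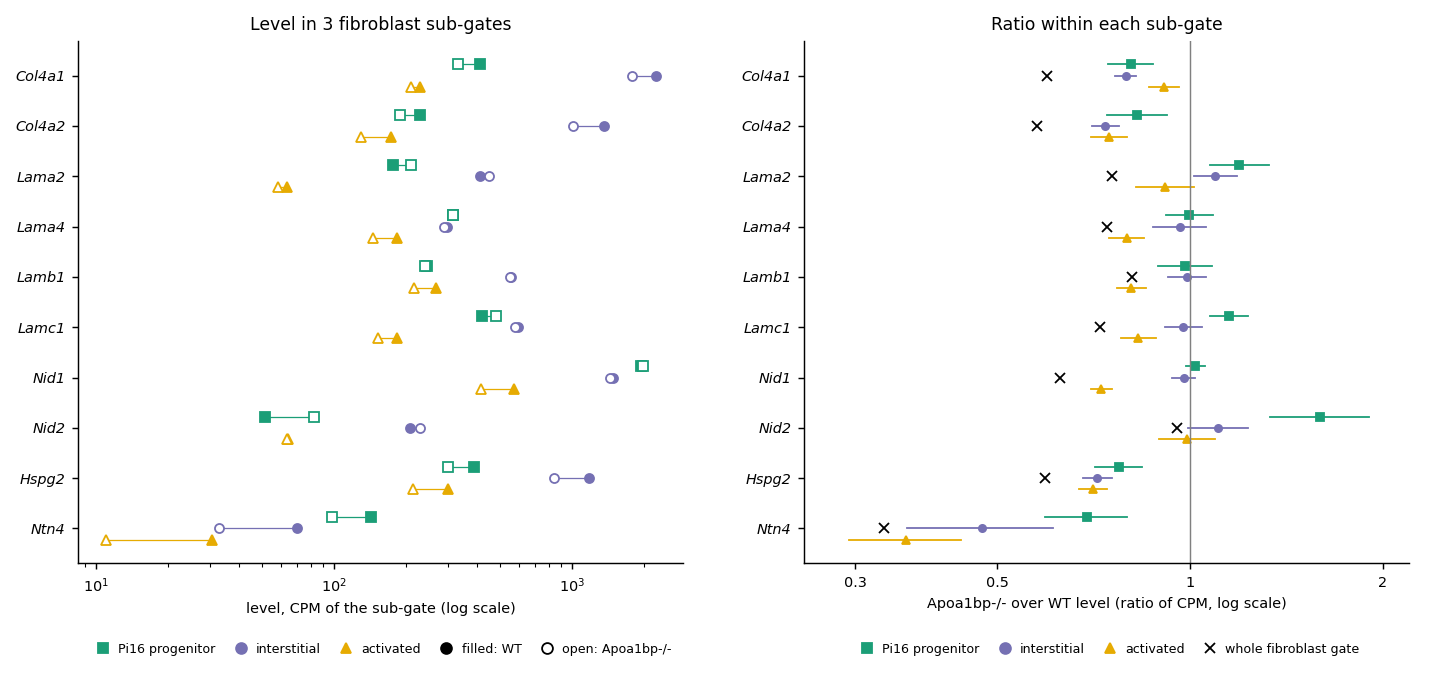
Left, level of each transcript in CPM (log axis) in 3 fibroblast sub-gates, with filled symbols for WT and open symbols for Apoa1bp-/-. Right, ratio of the Apoa1bp-/- to the WT level in each sub-gate with exact 95% intervals, and a cross for the whole gate. The cross lies left of most sub-gate symbols: for Nid1 it is at 0.628 against 1.02, 0.978 and 0.728.

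In endothelial cells 8 of the 10 reached 20 CPM, with 1 higher in Apoa1bp-/- and 0 lower, against 4.96% and 13.8% of all genes. The median log2 ratio of the 10 was -0.16, close to the -0.15 of all genes tested. TMM scaling placed the centre of all genes at -0.17 in endothelial, -0.18 in mural, -0.12 in myogenic and -0.08 in fibroblast cells, so ratios there are read against that shift. The higher one was Nid2, at 55.1 CPM in WT and 84.0 CPM in Apoa1bp-/- (ratio 1.53, interval 1.25 to 1.88), and it was under 1.5-fold with a gate margin of 1 marker (1.42) or gating on thinned cells (1.37). Lamc1 was at 1.17 (1.04 to 1.32) and Nid1 at 0.824 (0.748 to 0.907). Col4a1 was at 0.883 but at 1.05 in thinned cells. Lamb1, at 0.976, lay above 1 under both other scalings (1.08 and 1.10), and Hspg2, at 0.905, was at 1.02 under TMM.

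Endothelial Ntn4 was lower in Apoa1bp-/- by these counts, at a ratio of 0.368 (0.217 to 0.617), though under 20 CPM in both libraries. Its share of thinned cells with a UMI was 1.29% and 0.512%, near the 0% and 0.392% of T or NK cells. In the capillary sub-gate, which held 346 WT and 290 Apoa1bp-/- cells, Nid2 was again the 1 member higher (53.0 and 84.7 CPM) and 0 were lower, against 5.77% and 15.3% of all genes. The capillary sum was 5803 and 5410 CPM. Summed mural markers in the endothelial gate were 1024 CPM in WT and 348.4 CPM in Apoa1bp-/-, with 0 of the 10 higher in Apoa1bp-/-, and macrophage markers 492.1 and 232 CPM. Their part in these ratios was not tested.

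In mural cells 10 of the 10 reached 20 CPM. Ntn4 was lower (104.4 and 67.3 CPM, ratio 0.645, interval 0.465 to 0.900) and 0 were higher, against 20.3% and 9.83% of all genes. That Ntn4 ratio was inside 1.5-fold under the median of ratios (0.705), TMM (0.728) and without cells of over 3 times the median UMIs (0.689). Col4a1 had a ratio of 0.951 and lay above 1 under the median of ratios (1.04) and TMM (1.07). Col4a2 was at 0.848, and Lama4, with 96 and 163 UMIs, at 0.711, though at 1.34 in thinned cells. The median log2 ratio of the 10 was -0.26, and of all genes tested -0.14. Proliferating cells made up 6.19% of WT and 10.4% of Apoa1bp-/- mural cells, and among the others the sum was 5329 and 5398 CPM. In those others 0 members were higher and 0 lower, against 9.8% and 18.5% of all genes, with Ntn4 at 0.750 (0.534 to 1.06). In the proliferating mural cells, 12 and 23 of them, the sum was 4043 and 2629.7 CPM (0.650, 0.577 to 0.735).

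In myogenic cells 8 of the 10 reached 20 CPM, and 3 were lower in Apoa1bp-/- with 0 higher, against 9.44% and 7.3% of all genes. They were Nid1 (0.467, interval 0.396 to 0.551), Ntn4 (0.434, 0.374 to 0.503) and Lamb1 (0.658, 0.584 to 0.741). Lamb1 lay inside 1.5-fold under the median of ratios (0.681), TMM (0.713) and at the WT sub-gate shares of UMIs (0.697). Nid1 and Ntn4 did so under none of the settings tried. Within the progenitor sub-gate the Lamb1 ratio was 0.685. Lamc1 was above 1, at 1.29 (1.18 to 1.40), so the beta and gamma chains differed in direction. Lamb1 made up 38.9% of their joint UMIs in WT and 24.6% in Apoa1bp-/-. In fibroblasts the same share was 48.4% and 51.3%. Summed fibroblast markers in the myogenic gate were 429 CPM in WT and 290.7 CPM in Apoa1bp-/-, with 0 of the 10 higher in Apoa1bp-/-, and mural markers 224.2 and 115.8 CPM. Their part in the lower Nid1, Ntn4 and Lamb1 was not tested.

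Myogenic progenitors, marked by Pax7 and Myf5, held most of the basement membrane transcripts of their gate. The sum was 1315 CPM in WT (884 cells) and 1248 CPM in Apoa1bp-/- progenitors (910 cells), against 302.8 CPM (146 cells) and 256.3 CPM (283 cells) in committed cells marked by Myog and Mymk. Committed cells were lower for 8 of the 8 members that reached 20 CPM in WT and 9 of the 9 in Apoa1bp-/-, against 25.2% and 27.4% of all genes. Some of these reached 20 CPM only in progenitors and so had to be called lower. They were Nid1 (12.2 and 6.86 CPM in committed cells) and Ntn4 (11.3 and 4.00 CPM) in both libraries. Col4a2 (10 CPM) and Nid2 (2.29 CPM) were such cases in Apoa1bp-/- alone. Col4a1 went from 289.1 CPM in progenitors to 23.6 CPM in committed cells in WT, and from 354.5 to 40.6 CPM in Apoa1bp-/-. Hspg2 had a smaller gap, from 306 to 128.3 CPM in WT and from 234.8 to 91.5 CPM in Apoa1bp-/-.

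Within the progenitors, Nid1 (58.4 and 28.5 CPM) and Ntn4 (76.1 and 36.8 CPM) were lower in Apoa1bp-/- and 0 were higher, against 9.09% and 8.29% of all genes. Their ratios there were 0.488 and 0.484. Lamc1 was at 1.40 and Col4a1 at 1.23. The Col4a1 ratio of the whole gate was 1.12, and it was just below 1 in thinned cells (0.995) and with every cell weighted equally (0.983). In committed cells, where 6 of the 10 reached 20 CPM, Col4a1 was higher in Apoa1bp-/- (27 and 142 UMIs, ratio 1.72, interval 1.14 to 2.71) and Col4a2 lower (24 and 35 UMIs, 0.478, 0.276 to 0.839), against 6.47% and 12.3% of all genes. The ratios of the collagen IV pair thus lay on either side of 1 there, but mostly at levels near free RNA. Col4a2 reached 20 CPM only in WT and so had to be called lower. Col4a2 was at 20.9 and 10 CPM, against 23.0 and 10.95 CPM in T or NK cells. Col4a1, at 23.6 and 40.6 CPM, was below the T or NK level in WT (31.9 CPM) and above it in Apoa1bp-/- (18.6 CPM). Committed cells made up 13.7% of the WT and 22.6% of the Apoa1bp-/- gate.

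Proliferating cells made up 9.09% of the WT and 25.8% of the Apoa1bp-/- myogenic gate, and among them the sum was higher in Apoa1bp-/-, at 597.4 and 847.2 CPM (ratio 1.42, 1.31 to 1.53). Col4a1 was there at 77.1 and 207.1 CPM (2.69) and Lamc1 at 69.4 and 156.8 CPM (2.26), while the Nid1 ratio of 0.835 had an interval that held 1 (0.572 to 1.25). Ntn4 was at 0.578 (0.404 to 0.839). Among the cells not proliferating, the ratio of the sum was 0.828, that of Nid1 0.407 and that of Ntn4 0.447. Median UMIs per cell of the myogenic gate were 4403 in WT and 8596 in Apoa1bp-/-. The part of depth in the share of proliferating cells was not tested.

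In Schwann cells 10 of the 10 reached 20 CPM, on a total of 379 WT and 1463 Apoa1bp-/- UMIs. Lamb1 (192.2 and 108.8 CPM) and Ntn4 (3 and 2 UMIs) were lower and 0 were higher, against 24.1% and 21.7% of all genes, which is near the background. Ntn4 reached 20 CPM only in WT (22.2 and 3.82 CPM) and so had to be called lower. The Lamb1 interval lay below 1 (0.350 to 0.939), and the intervals of the other 9 ratios held 1.

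Ntn4 was the member with the lowest ratio in the endothelial, mural, fibroblast and myogenic gates, from 0.333 to 0.645. It also had the lowest ratio in Schwann cells, on 3 and 2 UMIs, and in macrophages (3.90 and 1.74 CPM, 0.447, 0.315 to 0.627), whose level is near that of free RNA. Over the settings tried its ratio ranged from 0.253 to 0.586 in fibroblasts, 0.340 to 0.479 in myogenic cells, 0.537 to 0.728 in mural cells and 0.213 to 0.413 in endothelial cells. Over all kept cells Ntn4 was at 0.371, Nid1 at 0.463 and the sum at 0.680.

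The cell types that supplied the transcripts differed in share between the libraries. Fibroblasts supplied 71.8% of all basement membrane UMIs in WT and 44.7% in Apoa1bp-/-, endothelial cells 8.22% and 19.9%, mural cells 1.86% and 5.85% and myogenic cells 4.09% and 10.9%. For Col4a1 the fibroblast share was 59.2% and 26.3% and the endothelial share 16.6% and 31.8%, so the main source was the fibroblast gate in WT and the endothelial gate in Apoa1bp-/-. Nid1 came mostly from fibroblasts in both, at 86.4% and 76.3%. Cells without a gate held 11.6% and 14.8% of the sum. The fibroblast gate held 4326 cells in WT and 1551 in Apoa1bp-/-, and how many cells of each type the digestion released is not known.

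**Figure D4:**
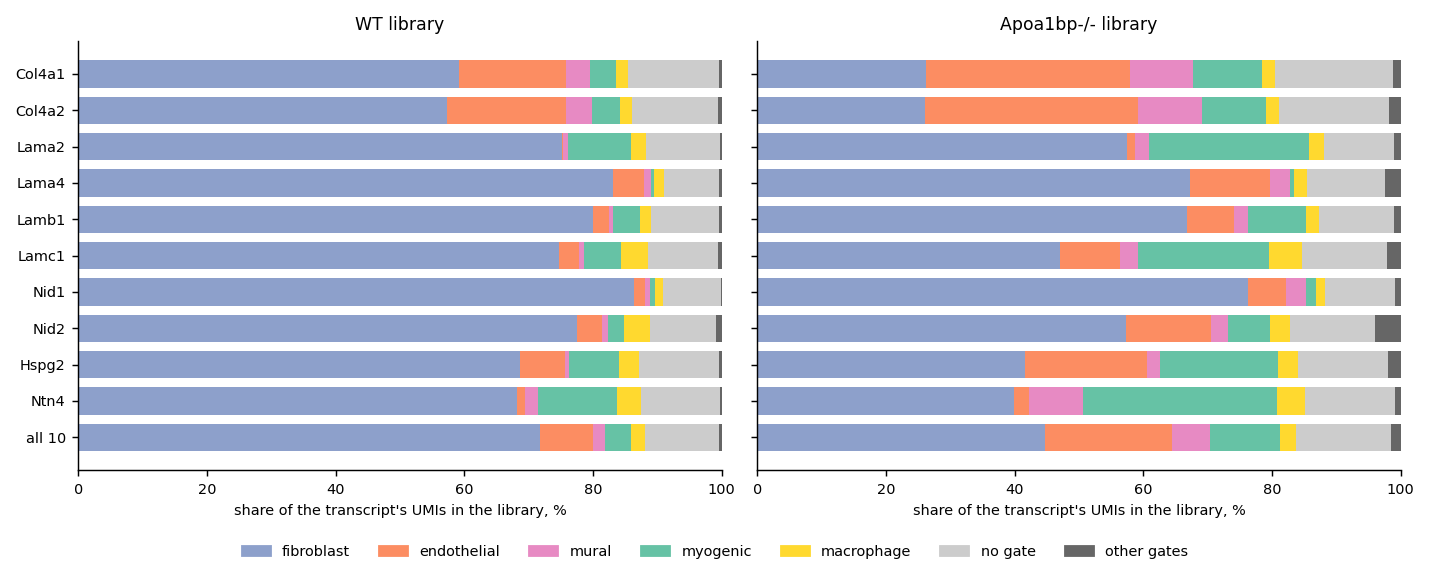
Share of each transcript's UMIs (percent of its UMIs in the library) found in each gate, for WT (left) and Apoa1bp-/- (right). The fibroblast segment of the summed bar runs to 71.8% in WT and 44.7% in Apoa1bp-/-.

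The other basement membrane genes, in 6 lists chosen as described under the processing, gave these counts by the same rule. They are read against the 13% of all genes that were lower in fibroblasts, 13.8% in endothelial and 9.44% in myogenic cells. In fibroblasts both collagen IV chains that reached 20 CPM were lower in Apoa1bp-/- (Col4a4, 30.5 and 11.7 CPM, and Col4a5, 62.0 and 39.8 CPM). So were both other laminin or netrin chains (Lamb2, 147.6 and 75.1 CPM, and Ntn1, 40.5 and 18.1 CPM). Col4a4 reached 20 CPM only in WT and so had to be called lower. Ntn1 also reached it only in WT. Of 12 further basement membrane proteins in fibroblasts, 4 were lower and 0 higher, led by Smoc2, a matricellular calcium-binding protein (807.8 and 395.9 CPM). Of those 4, Hmcn1 (31.7 and 17.7 CPM) and Vwa1 (28.2 and 15.8 CPM) reached 20 CPM only in WT. Sparc, a collagen IV-binding protein and the one with most UMIs, was at 7846 and 9530.2 CPM. Of 15 genes for collagen folding, modification and cross-linking, 0 were higher and 0 lower in fibroblasts, where Serpinh1, the collagen chaperone, was at 1270.5 and 1418 CPM.

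Of 8 remodelling genes in fibroblasts, 4 were lower and Timp1, a metalloproteinase inhibitor, was higher (248.7 and 546.6 CPM). Timp1 was also higher in mural cells (31.5 and 84.7 CPM). It was lower by the rule in endothelial (39.9 and 25.2 CPM) and myogenic cells (158.6 and 86.5 CPM). Timp3, an inhibitor held in the matrix, was lower by the rule in all 4 main gates, with 303.2 and 119.4 CPM in fibroblasts, 845.5 and 448.9 CPM in endothelial cells, 994.1 and 576.8 CPM in mural cells and 96.8 and 30.7 CPM in myogenic cells. In endothelial cells 4 of 15 folding and cross-linking genes were lower, Lox (30.7 and 11.4 CPM), P4ha2, P4ha1 and Loxl2. In myogenic cells 5 of 13 were lower, led by Lox (38.6 and 9.58 CPM). In both gates Lox reached 20 CPM only in WT and so had to be called lower. Endothelial P4ha2 and Loxl2 (each 15.2 CPM in Apoa1bp-/-) also reached it only in WT. Among receptors, dystroglycan (Dag1), which binds Lama2 on muscle fibres, was at 1064 and 810.4 CPM in myogenic cells and was inside 1.5-fold. In fibroblasts, at 153.7 and 96.6 CPM, it was lower by the rule (0.629). Of 7 receptors there, 1 was higher, Itga1 (25.9 and 40.0 CPM). The 2 lower were Dag1 and Ddr2 (191.8 and 111.1 CPM), against 6.84% of all genes higher and 13% lower.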

How the data were processed

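As deposited, both tables are raw UMI counts of genes by barcodes, without normalization by the authors. The file headers name Cell Ranger 5.0.0 and the submitters' processing notes 2.1.1, and which applies could not be settled. Per the labels' protocols, muscle was minced, digested with Collagenase D and strained before 10x Genomics capture. No source used here names the build or annotation behind the counts, so coordinates come only from RefSeq on GRCm38.p6. The members and lists were chosen with earlier results of these data known.

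Barcodes with under 200 genes (49 WT, 31 Apoa1bp-/-) or over 10% mitochondrial UMIs (149 and 197) were removed. Cells were gated by 11 lists of 10 markers (at least 3 markers, and 2 more than any other list), a rule settled after looking at cells per gate. Cells within 1 marker of a gate's limit were 6.82% to 30.3% of the endothelial, mural, fibroblast and myogenic gates. No doublet caller was run. Cells without a gate included 1023 WT and 599 Apoa1bp-/- cells with at least 3 markers of each of 2 lists. Cells with markers of several lineages stayed in a gate when 1 list led by at least 2 markers. B cells (30 in WT) were left out, since a gate needed 50 cells in each library. Sub-gates needed 2 of 8 markers and 1 more than any other, and proliferating cells 3 of 8. Both were set at full depth, where a deeper cell can show more markers, and the part of depth in their shares was not tested.

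UMIs were summed per gate and library. Levels have exact Poisson intervals, ratios exact conditional binomial intervals, and shares exact Clopper-Pearson intervals. Log2 ratios add a prior count of 0.5. Shares of cells were taken after thinning to 1000 UMIs. Thinning left out 70 and 22 endothelial, 47 and 18 mural, 108 and 28 fibroblast, 20 and 3 myogenic and 32 and 10 T or NK cells (WT and Apoa1bp-/-). The text names all 10 members. From each list, the genes of at least 20 CPM with the largest ratio (up to 4) and the one with most UMIs were picked per gate. The text names only some of those picked. For Col4a1, Lama2, Lama4 and Ntn4 it names the 3 genes of highest Pearson r of log2(CPM + 5). Those of Nid1 were Lama4, Tril and Calu. Intervals and gates were tested on simulated data. Alternatives were other gates, thinning, weighting by cells or sub-gates, free RNA subtraction and scaling by the median of ratios or TMM (edgeR 4.0.16). Python 3.11.15, numpy 2.4.6, scipy 1.17.1, pandas 2.3.3, matplotlib 3.10.9 and R 4.3.3 were used.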

Additional observations from a re-analysis of the deposited data

Results flagged for a closer look

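Col4a1 was above WT in Apoa1bp-/- myogenic cells (ratio 1.12) and below it in endothelial cells (0.883) and fibroblasts (0.597), which drew attention because the gates differ in direction. Lamc1 did likewise, above WT in endothelial (1.17) and myogenic cells (1.29) and below it in fibroblasts (0.725). The difference between gates was not tested, since each gate has 1 library per genotype. The Col4a1 direction in endothelial and myogenic cells changed when cells were weighted equally (1.07 and 0.983). Lamc1 was above 1 in endothelial and myogenic cells under every alternative run, with lowest values of 1.10 and 1.23. In fibroblasts it was at 1.02 with sub-gates weighted equally and at 1.01 at the WT shares of UMIs.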

How the results depend on the processing

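No paired analysis was possible because each genotype has 1 library, and leaving out a replicate was not possible either. With 1 library per genotype, genotype, animals, dissociation and sequencing depth cannot be told apart, and depth limits the members under 20 CPM. Values below are ratios of the sum of the 10 genes. Gates of 2 or 4 markers and no filter on barcodes kept every ratio inside its counting interval. The cause of the differences was not tested.

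For Apoa1bp-/- over WT in endothelial cells, the ratio of 0.867 was 0.845 with a margin of 1 marker, 0.929 without cells of over 3 times the median UMIs, 1 in thinned cells, 1.04 as a mean over cells, 0.840 with sub-gates weighted equally, 0.958 under the median of ratios and 0.972 under TMM. In mural cells the 0.889 was 0.987 without those deep cells, 1.00 thinned (1.001), 1.03 as a mean over cells, 0.971 under the median of ratios and 1.003 under TMM. In fibroblasts the 0.649 was 0.687 with gating on thinned cells, 0.673 without deep cells, 0.723 thinned, 0.720 as a mean over cells (0.7198), 0.690 under the median of ratios (0.6903), 0.685 under TMM, 0.8827 with sub-gates weighted equally and 0.8834 at the WT shares, the last chosen after seeing the data. In myogenic cells the 0.870 was 0.815 without deep cells, 0.898 with free RNA subtracted, 0.9302 with sub-gates weighted equally, 0.901 under the median of ratios, 0.943 under TMM and 0.947 at the WT shares. In macrophages the 0.778 was 0.428 with gating on thinned cells, 0.687 with the 1-marker margin, 0.697 without deep cells, 0.644 thinned, 0.554 as a mean over cells, 0.829 under the median of ratios and 0.843 under TMM.

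Endothelial over fibroblast in WT, 1.37 as summed, was 1.403 with the 1-marker margin, 1.18 without deep cells, 0.9701 thinned, 0.921 as a mean over cells, 0.961 with sub-gates weighted equally, 1.26 under the median of ratios and 1.23 under TMM. In Apoa1bp-/- the 1.83 was 1.71 with gating on thinned cells, 1.63 without deep cells, 1.34 thinned, 1.33 as a mean over cells, 1.865 with free RNA subtracted, 1.72 under the median of ratios and 1.735 under TMM. It changed direction with sub-gates weighted equally (0.915). Mural over endothelial in WT, 0.8925 as summed, was 0.849 with the 1-marker margin, 0.976 without deep cells, 1.01 thinned, 1.07 as a mean over cells, 1.09 with sub-gates weighted equally, 0.8301 under the median of ratios and 0.776 under TMM. In Apoa1bp-/- the 0.915 was 0.979 with gating on thinned cells, 0.887 with the 1-marker margin, 1.04 without deep cells, 1.01 thinned, 1.06 as a mean over cells, 1.15 with sub-gates weighted equally, 0.852 under the median of ratios and 0.806 under TMM.

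Of single genes, Lama2 in endothelial cells (13 and 54 UMIs) turned from 2.21 to 0.482 with sub-gates weighted equally and was 13.1 with free RNA subtracted, and Nid2 in macrophages turned to 1.38 with free RNA subtracted. Without a minimum level, 24.8% of genes were 1.5-fold lower in Apoa1bp-/- fibroblasts in place of 13%.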
